A study of Mus musculus with 8 samples.

Results

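The matrix around heart cells is cut by zinc-dependent proteases, held in check by their inhibitors and stiffened by enzymes that crosslink collagen and elastin. Genes of these families were compared between hearts of WT and Mettl3 KO mice by RNA-seq. Members were all protein-coding genes whose symbols place them among the matrix metalloproteinases (Mmp), tissue inhibitors of metalloproteinases (Timp), ADAM and ADAMTS families or lysyl oxidases (Lox, Loxl), with a mean over the 8 libraries that reached 1. Of 64 such genes among 23045 in the table, 63 qualified, and Mmp24 (0, 0, 0 and 1 in WT, 0, 0, 0 and 2 in Mettl3 KO libraries) was left out. The symbol rule does not ask for protease activity, so it also takes in the ADAMTS-like proteins and ADAMs without a working catalytic site.

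The 4 Mettl3 KO libraries came from hearts labelled Mettl3lox/lox:alphaMHC-MerCreMerpos. Their loxP-flanked Mettl3, the gene of the core enzyme that places N6-methyladenosine (m6A) on RNA, can be deleted by MerCreMer, a tamoxifen-activated Cre recombinase driven in cardiomyocytes by the alphaMHC promoter. The 4 WT libraries came from Mettl3lox/lox hearts without that transgene, so WT here means floxed and Cre-negative, and the transgene and the deletion cannot be told apart. Mice of both genotypes were 10 to 16 weeks old when they were given tamoxifen, and how long after it the hearts were taken is not given in the sources used here. MerCreMer is driven in cardiomyocytes, and Mettl3 was not measured in other heart cells by themselves. RNA was taken from heart tissue, so a change in the number of cells of a type and a change of RNA per cell cannot be told apart.

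Values are read counts normalized between libraries, and they summed to 2839589 to 2881849 per WT and 2840184 to 2916986 per Mettl3 KO library. Mettl3 itself was at 105, 133, 118 and 107 in WT libraries and at 74, 68, 69 and 78 in Mettl3 KO libraries, 62.4% of the WT mean. The cardiomyocyte markers were present in every library, with a summed level of 90581 to 97179 in WT and 87923 to 98408 in Mettl3 KO hearts, most of it from Ttn. Mettl3 KO replicate 1 stood apart from the other Mettl3 KO libraries, with a chi-square per degree of freedom of 1.67 to 1.89 against them. Replicates 2, 3 and 4 differed from each other by 1.09 to 1.16. Counting noise alone would give 1 for raw counts, and these values are normalized, so they were not set against it. WT libraries differed from each other by 1.13 to 1.73. The labels give 4 libraries a genotype and do not state that each is 1 animal, so the p-values measure the spread between these libraries.

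Matrix metalloproteinases are made as inactive precursors and cleave collagens, gelatin and other matrix proteins, some as secreted enzymes and some bound to the cell membrane. The 4 TIMPs bind their active sites. ADAMs are membrane proteins, several of which shed the outer parts of receptors and growth factors, while ADAMTS enzymes are secreted, trim procollagens and cut proteoglycans such as versican. Lysyl oxidases oxidise lysines in collagen and elastin, the step that starts crosslinking. In the heart, fibroblasts are a main source of many of these proteins.

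Of the 63 members, 13 (20.6%) had a limma adjusted p under 0.05, against 7.91% of all 20313 genes tested. Without Mettl3 KO replicate 3 the called genes fell from 1607 to 1019 and the called members from 13 to 11. Higher in Mettl3 KO hearts were 10 of them (Lox, Loxl1, Mmp2, Mmp16, Timp2, Adamts1, Adamts2, Adamts8, Adamtsl2 and Adam33), where 4.72% of all genes were called higher. Lower were 3 (Mmp15, Adam19 and Adamts9), where 3.19% of all genes were called lower. Members are protein-coding and many are well expressed, and calls are more frequent among such genes: of members whose mean value reached 20, 11 of 41 (26.8%) were called, beside 12.2% of the 10948 protein-coding genes at that level. The median log2 fold change was 0.06 over the members and -0.01 over all genes tested, and without Mettl3 KO replicate 4 that of the members was -0.0037.

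No overlap between WT and Mettl3 KO values was seen in 14 members (22.2%), where this held for 11.5% of all genes tested and 14.2% of the protein-coding ones. Among genes with a mean that reached 20 it held for 11 of 41 members (26.8%) and for 1865 of 10948 protein-coding genes. Among the 14 members were 10 of the 13 called members and also Adamts14, Adam15, Loxl3 and Adamtsl1, which did not pass the threshold. Leaving out each library in turn gave between 10 called members (without Mettl3 KO replicate 4) and 15 (without Mettl3 KO replicate 1).

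**Figure D1:**
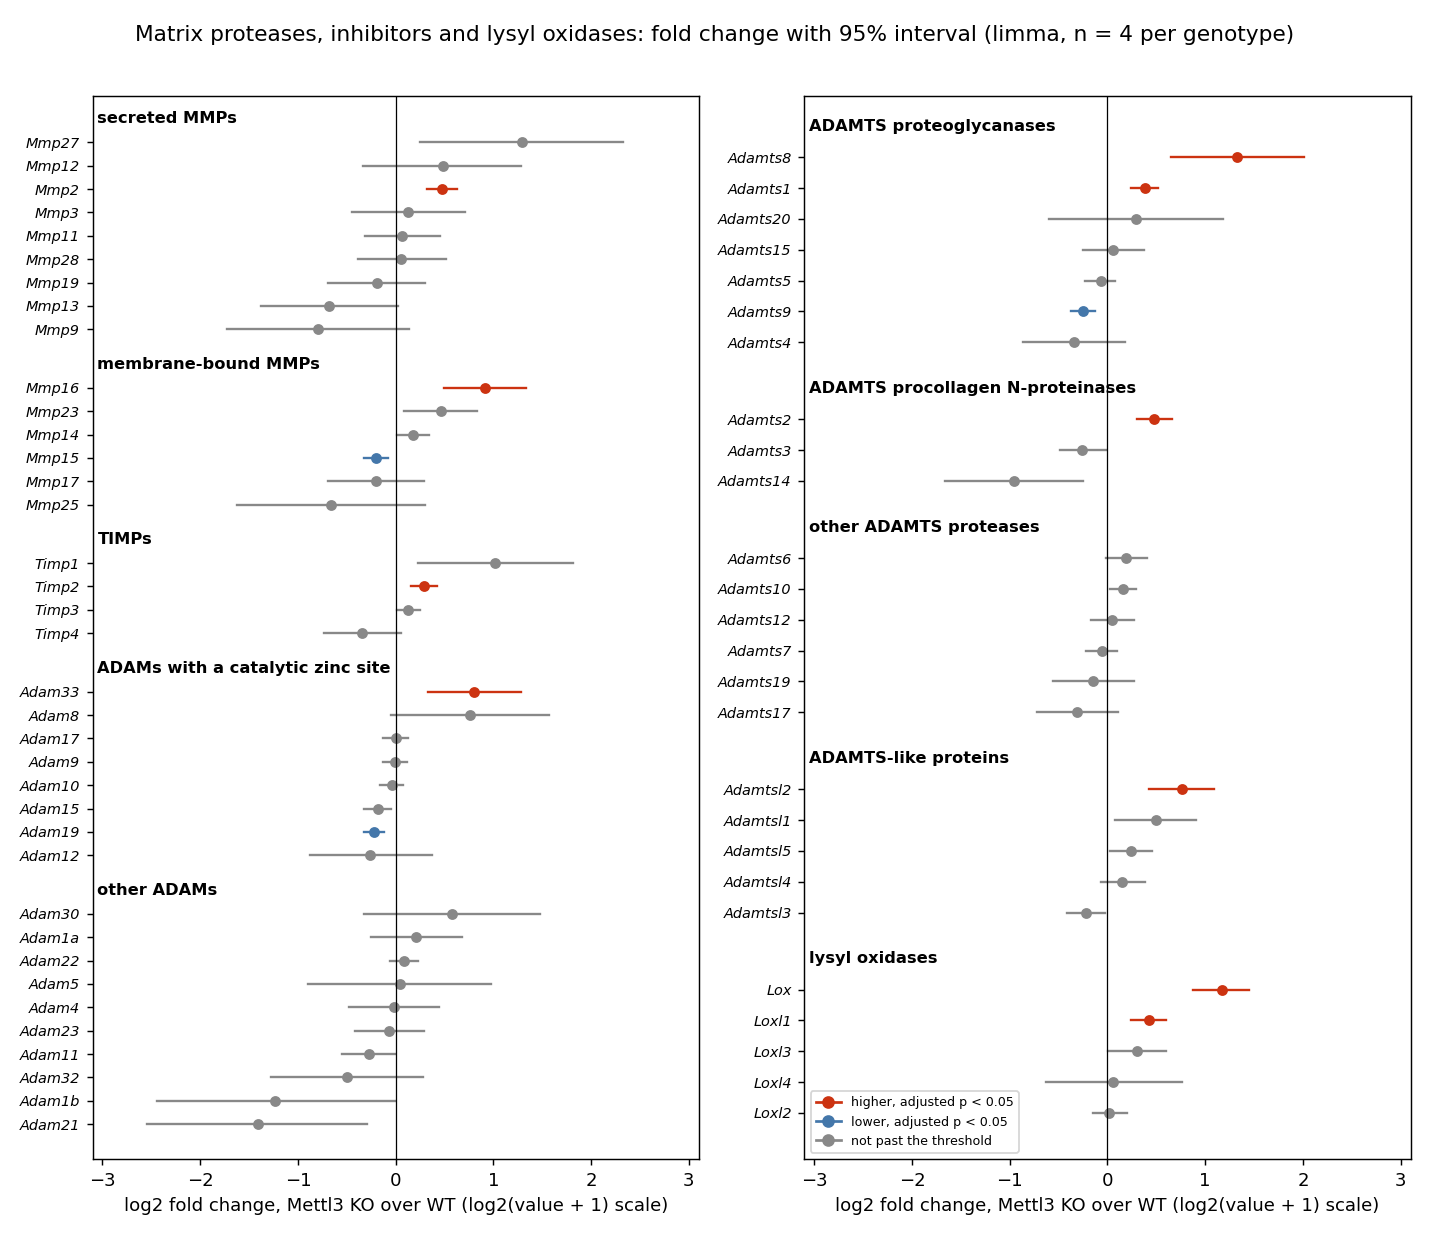
Log2 fold change of Mettl3 KO over WT (x axis, log2(value + 1) scale) for the 63 members, ordered within role groups (y axis). Points are limma estimates from 4 libraries per genotype and lines their 95% intervals; the 10 members called higher are red, the 3 called lower blue, and most grey members have intervals that span 0.

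The lysyl oxidases held the clearest change. Lox (ENSMUSG00000024529, mm39 chromosome 18, 52649139 to 52662939, minus strand), the founding member of the family, was at 29, 31, 36 and 31 normalized read counts in WT libraries and at 81, 62, 75 and 73 in Mettl3 KO libraries. The lowest Mettl3 KO value was thus well above the highest WT value, and the mean was 229% of WT (31.8 ± 2.99 against 72.8 ± 7.93, SD, n = 4). On the log2 scale the change was 1.17 (± 0.14 SE, adjusted p = 8.12e-06 by limma), the smallest adjusted p of any member. Loxl1 (ENSMUSG00000032334, chromosome 9, 58195021 to 58220469, minus strand), which is needed for elastic fibre upkeep, was at 118, 104, 100 and 105 in WT libraries and at 139, 138, 146 and 149 in Mettl3 KO libraries. Its groups did not overlap either, and it rose by 0.42 on the log2 scale (± 0.08 SE, adjusted p = 0.00257 by limma).

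The other lysyl oxidases did not pass the threshold. Loxl3 was at 41, 36, 41 and 33 in WT libraries and at 43, 47, 46 and 51 in Mettl3 KO libraries, a small gap without overlap, with a log2 fold change of 0.30 (95% interval 0.0071 to 0.60, adjusted p = 0.230 by limma). Loxl2 was at 179, 151, 174 and 156 in WT libraries and at 177, 145, 171 and 179 in Mettl3 KO libraries, and its log2 fold change of 0.02 had an interval of -0.15 to 0.20. Loxl4 was low in all libraries, at 5 to 12 in WT and 6 to 9 in Mettl3 KO, and its interval of -0.63 to 0.76 is too wide to place it. Per length of transcript the order of the family differed between genotypes. Lox had 6.70 normalized read counts per kb in WT and 15.3 in Mettl3 KO hearts, Loxl3 had 9.21 and 11.4, Loxl2 had 31.0 and 31.6, and Loxl1 had 32.4 and 43.4, so that Lox stood below Loxl3 in WT and above it in Mettl3 KO hearts.

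**Figure D2:**
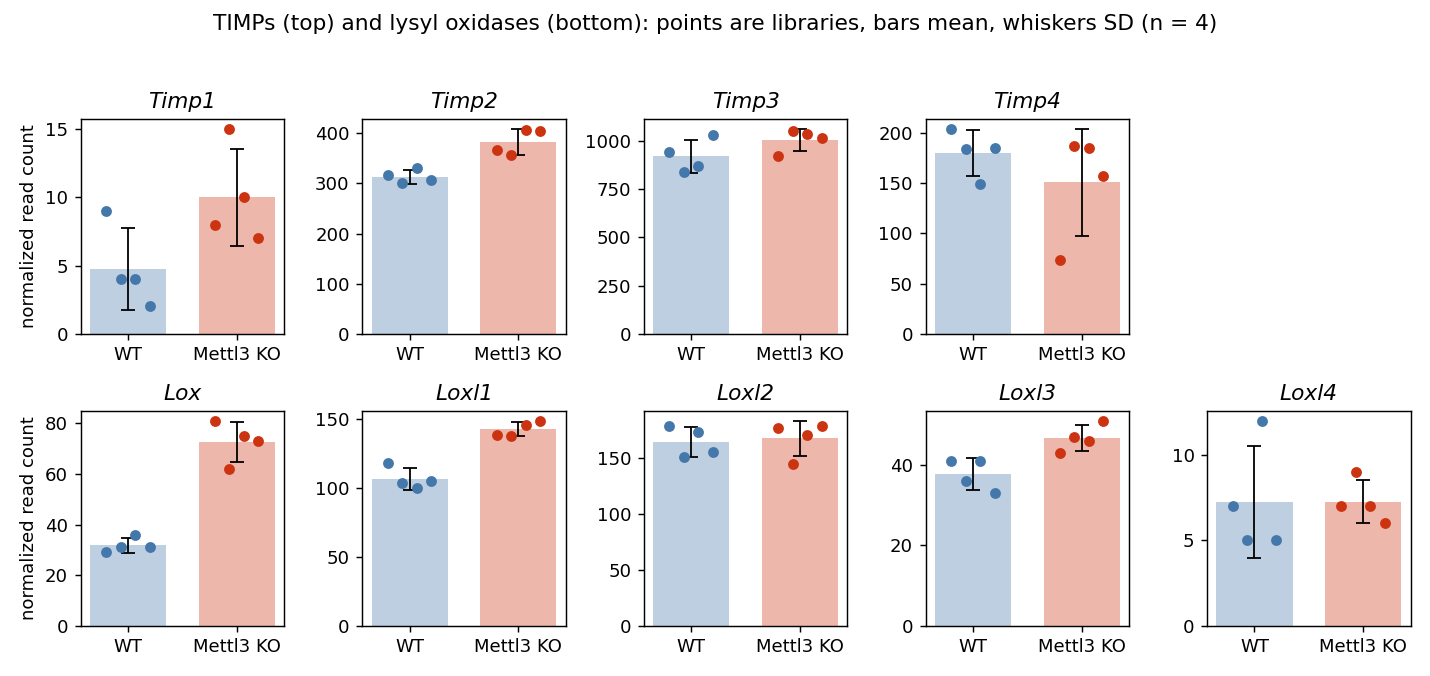
Normalized read counts (y axis, from 0) of the 4 TIMPs and the 5 lysyl oxidases in WT (blue) and Mettl3 KO (red) hearts. Points are libraries, bars the mean and whiskers the SD (n = 4); Lox, Loxl1, Loxl3 and Timp2 separate the genotypes, and the low bar of Timp4 in Mettl3 KO hearts comes with 1 library at 74.

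Among the secreted metalloproteinases only Mmp2 was called, of 9 tested. Mmp2 (ENSMUSG00000031740, chromosome 8, 93553919 to 93580048, plus strand) encodes gelatinase A, which digests denatured collagen and the type IV collagen of basement membranes. It was at 299, 254, 313 and 276 in WT libraries and at 441, 340, 407 and 402 in Mettl3 KO libraries, without overlap. The log2 fold change was 0.47 (± 0.08 SE, adjusted p = 0.000273 by limma), a mean of 139% of WT. Mmp2 was also the most abundant secreted member per length, at 92.8 normalized read counts per kb in WT and 129.1 in Mettl3 KO hearts, where Mmp11, the next in order, had 11.7.

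The remaining secreted members were measured at low levels and did not pass. Mmp9, gelatinase B, was at 5, 2, 8 and 2 in WT libraries and at 2, 2, 1 and 2 in Mettl3 KO libraries. Mmp3 (stromelysin) had 11 to 19 in WT and 10 to 24 in Mettl3 KO libraries, and the collagenase Mmp13 had 22, 23, 7 and 19 in WT and 14, 7, 13 and 7. Mmp12, the macrophage metalloelastase, covered the widest range of values, at 7, 30, 12 and 10 in WT libraries and at 17, 10, 14 and 44 in Mettl3 KO libraries. Mmp11 (23 to 27 in WT, 22 to 31 in Mettl3 KO), Mmp19 (12 to 19 and 12 to 16) and Mmp28 (18 to 42 and 24 to 33) stayed in like ranges. The ranges of these secreted members overlapped, and at this depth changes of the size seen for Mmp2 were not detectable in the most scattered of them: the interval of Mmp13 ran from -1.38 to 0.02 and that of Mmp12 from -0.33 to 1.28. Mmp27 was at 0 or 1 in WT and at 1 to 3 in Mettl3 KO libraries, too few reads to compare.

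Of the 6 membrane-bound metalloproteinases, Mmp16 was higher and Mmp15 lower. Mmp16 (ENSMUSG00000028226, chromosome 4, 17852893 to 18119145, plus strand) was at 17, 14, 22 and 16 in WT libraries and at 37, 26, 36 and 34 in Mettl3 KO libraries, without overlap. Its log2 fold change was 0.91 (± 0.20 SE, adjusted p = 0.00564 by limma). Mmp15 (ENSMUSG00000031790, chromosome 8, 96078896 to 96101708, plus strand), the most abundant of the group, was at 554, 516, 534 and 479 in WT libraries and at 479, 413, 478 and 444 in Mettl3 KO libraries. The groups touched at 479, and the log2 fold change of -0.20 (± 0.06 SE, adjusted p = 0.0382 by limma) is the weakest of the calls. It was lost without WT replicate 1, 2 or 3 (adjusted p values of 0.142, 0.0830 and 0.0899 by limma) and without Mettl3 KO replicate 2, 3 or 4 (adjusted p values of 0.153, 0.0520 and 0.103 by limma).

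Mmp14, the membrane-type enzyme that activates the Mmp2 precursor with the help of Timp2, was at 197, 176, 220 and 203 in WT libraries and at 246, 212, 239 and 203 in Mettl3 KO libraries. These values overlapped, and the log2 fold change was 0.18 (95% interval 0.0099 to 0.34, adjusted p = 0.210 by limma). Mmp23 was at 27, 26, 32 and 26 in WT libraries and at 29, 41, 38 and 48 in Mettl3 KO libraries (0.46, adjusted p = 0.124 by limma). Mmp17 and Mmp25 were low, at 12 to 21 and at 1 to 6, and overlapped.

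Of the inhibitors, Timp2 rose. Timp2 (ENSMUSG00000017466, chromosome 11, 118191887 to 118246566, minus strand) was at 316, 300, 330 and 306 in WT libraries and at 367, 356, 406 and 404 in Mettl3 KO libraries, without overlap, a log2 fold change of 0.29 (± 0.06 SE, adjusted p = 0.00338 by limma). Timp3, the inhibitor that binds to the matrix, was the most abundant member of all per length, at 195 normalized read counts per kb in WT and 213 in Mettl3 KO hearts. It was at 941, 838, 870 and 1032 in WT libraries and at 922, 1050, 1033 and 1012 in Mettl3 KO libraries, with overlap. Its log2 fold change of 0.13 (95% interval 0.01 to 0.25, adjusted p = 0.189 by limma) passed only without WT replicate 4 (0.19, adjusted p = 0.0496 by limma).

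Timp4, an inhibitor prominent in the heart, and Timp1 did not pass, and the fold change of Timp4 depended on a single library. Timp4 was at 204, 184, 149 and 185 in WT libraries and at 74, 187, 185 and 157 in Mettl3 KO libraries, so all but Mettl3 KO replicate 1 lay within the WT range. With that library the log2 fold change was -0.34 (adjusted p = 0.329 by limma) and without it -0.03 (adjusted p = 0.916 by limma). Timp1 was low, at 9, 4, 4 and 2 in WT libraries and at 8, 15, 10 and 7 in Mettl3 KO libraries. Its log2 fold change of 1.02 (95% interval 0.23 to 1.81, adjusted p = 0.110 by limma) passed only without WT replicate 1 (1.33, adjusted p = 0.0460 by limma). Summed, the TIMPs came to 1326 to 1525 normalized read counts in WT and 1371 to 1634 in Mettl3 KO libraries, most of them from Timp3.

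Among 8 ADAMs listed with a catalytic zinc site, Adam19 was lower and Adam33 higher. Adam19 (ENSMUSG00000011256, chromosome 11, 45946819 to 46038170, plus strand), a sheddase of neuregulins needed in heart development, was at 555, 551, 566 and 595 in WT libraries and at 499, 461, 502 and 483 in Mettl3 KO libraries. The groups did not overlap, and it fell by 0.22 on the log2 scale (± 0.05 SE, adjusted p = 0.00656 by limma). Adam33 (ENSMUSG00000027318, chromosome 2, 130892511 to 130905734, minus strand), a gene of mesenchymal cells, had 12 in each WT library and 21, 23, 17 and 27 in Mettl3 KO libraries. Its log2 fold change of 0.80 (± 0.23 SE, adjusted p = 0.0308 by limma) no longer passed when any single WT library was left out (adjusted p values of 0.0544 to 0.0618), without Mettl3 KO replicate 2 or 4 (adjusted p values of 0.0808 and 0.110) and with the replicate number as a block (adjusted p = 0.0532).

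The widely expressed sheddases lay close to 0 with narrow intervals. Adam10, which cleaves Notch receptors and cadherins, had a log2 fold change of -0.04 (95% interval -0.16 to 0.08), Adam17, the converting enzyme of TNF, had 0.0012 (-0.13 to 0.13), and Adam9 had -0.0076 (-0.13 to 0.12). Their WT means were 459.5, 320.2 and 387.5 normalized read counts, in each case with overlapping groups. Adam15 was at 225, 251, 241 and 228 in WT libraries and at 216, 214, 200 and 201 in Mettl3 KO libraries, lower in each Mettl3 KO library than in any WT library, but did not pass (-0.18, adjusted p = 0.0993 by limma). Adam12 and Adam8 had at most 18 in any library and overlapped. None of the 10 further ADAMs was called, and those with an unadjusted p under 0.05 were Adam11 (116, 79, 91 and 79 in WT, 86, 60, 76 and 78 in Mettl3 KO) and the barely detected Adam21 and Adam1b, with at most 7 in any library. Adam23 (35 to 55 in WT, 34 to 54 in Mettl3 KO), Adam1a (18 to 38 and 22 to 42), Adam4 (15 to 21 and 15 to 22), Adam32 (3 to 12 and 4 to 6), Adam30 (1 to 4 and 3 to 4) and Adam5 (1 to 3 and 1 to 2) overlapped between the genotypes. The most abundant of these 10, Adam22, a protein without protease activity best known from synapses, had a mean of 192.5 in WT and 205 in Mettl3 KO hearts (0.09, adjusted p = 0.544 by limma).

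The ADAMTS enzymes that cut proteoglycans did not move together: of 7, Adamts1 and Adamts8 were higher, Adamts9 was lower and the others did not pass. Adamts1 (ENSMUSG00000022893, chromosome 16, 85590715 to 85600001, minus strand) was at 227, 239, 202 and 248 in WT libraries and at 307, 297, 293 and 295 in Mettl3 KO libraries. The Mettl3 KO values lay close together and above all WT values, and the log2 fold change was 0.38 (± 0.07 SE, adjusted p = 0.000778 by limma). Adamts9 (ENSMUSG00000030022, chromosome 6, 92749680 to 92920473, minus strand), which cleaves versican in the developing heart, was at 682, 632, 589 and 669 in WT libraries and at 527, 592, 517 and 527 in Mettl3 KO libraries. Mettl3 KO replicate 2, at 592, lay just inside the WT range, and the log2 fold change was -0.25 (± 0.06 SE, adjusted p = 0.00628 by limma).

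Adamts8 (ENSMUSG00000031994, chromosome 9, 30853858 to 30875134, plus strand) was at 5, 3, 4 and 6 in WT libraries and at 9, 10, 18 and 15 in Mettl3 KO libraries. The groups did not overlap, but with so few reads the size of its log2 fold change, 1.33 (± 0.33 SE, 95% interval 0.65 to 2.01, adjusted p = 0.0133 by limma), is uncertain. The call was lost when Mettl3 KO replicate 3 or 4 was left out (adjusted p values of 0.0712 and 0.0539). Adamts5, a main aggrecanase, was at 418, 385, 335 and 342 in WT libraries and at 310, 370, 344 and 382 in Mettl3 KO libraries, a log2 fold change of -0.07 (95% interval -0.23 to 0.08). Adamts4, Adamts15 and Adamts20 overlapped as well, at 12 to 32, 63 to 110 and 2 to 7.

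The procollagen N-proteinases remove the amino-terminal propeptide of fibrillar procollagens, and 1 of 3 was called. Adamts2 (ENSMUSG00000036545, chromosome 11, 50492911 to 50698400, plus strand), the main such enzyme of type I collagen, was at 229, 179, 209 and 190 in WT libraries and at 293, 237, 315 and 281 in Mettl3 KO libraries. It rose by 0.48 on the log2 scale without overlap (± 0.09 SE, adjusted p = 0.000913 by limma). Adamts14 was at 15, 18, 18 and 24 in WT libraries and at 3, 13, 13 and 12 in Mettl3 KO libraries, below WT in each, with a log2 fold change of -0.96 (95% interval -1.66 to -0.25, adjusted p = 0.0938 by limma). Adamts3 was at 79, 73, 76 and 93 in WT libraries and at 75, 64, 64 and 64 in Mettl3 KO libraries (-0.26, adjusted p = 0.187 by limma). Per length, Adamts2 had 27.8 normalized read counts per kb in WT and 38.7 in Mettl3 KO hearts, Adamts3 20.4 and 16.95, and Adamts14 3.61 and 1.98.

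None of the 6 other ADAMTS proteases was called, and 1 (Adamts10) had an unadjusted p under 0.05. Adamts10, the most abundant, is tied to fibrillin microfibrils and was at 259, 275, 301 and 288 in WT libraries and at 334, 293, 315 and 313 in Mettl3 KO libraries, with overlap (0.16, 95% interval 0.03 to 0.29, adjusted p = 0.141 by limma). Adamts7 (-0.06), Adamts12 (0.05), Adamts6 (0.19), Adamts19 (-0.15) and Adamts17 (-0.31 on the log2 scale) had intervals that span 0.

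The ADAMTS-like proteins share domains with ADAMTS enzymes but have no protease domain, and several bind fibrillin microfibrils. Adamtsl2 (ENSMUSG00000036040, chromosome 2, 26969391 to 26998993, plus strand) was at 97, 60, 52 and 63 in WT libraries and at 84, 123, 115 and 135 in Mettl3 KO libraries. WT replicate 1 lay above Mettl3 KO replicate 1, and the log2 fold change of 0.76 (± 0.16 SE, adjusted p = 0.00331 by limma) ranged from 0.65 to 0.94 as each library was left out, with an adjusted p of at most 0.0313. Adamtsl5, the most abundant per length at 112 normalized read counts per kb in Mettl3 KO hearts, was at 151, 226, 180 and 187 in WT libraries and at 180, 230, 247 and 220 in Mettl3 KO libraries. It did not pass (0.24, adjusted p = 0.178 by limma) except without Mettl3 KO replicate 1 (0.33, adjusted p = 0.0388 by limma). Adamtsl1 was at 17, 19, 22 and 15 in WT libraries and at 23, 25, 27 and 29 in Mettl3 KO libraries (0.50, adjusted p = 0.149 by limma), Adamtsl4 had a log2 fold change of 0.15, and Adamtsl3, at -0.22, was the member of the group that lay below 0.

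**Figure D3:**
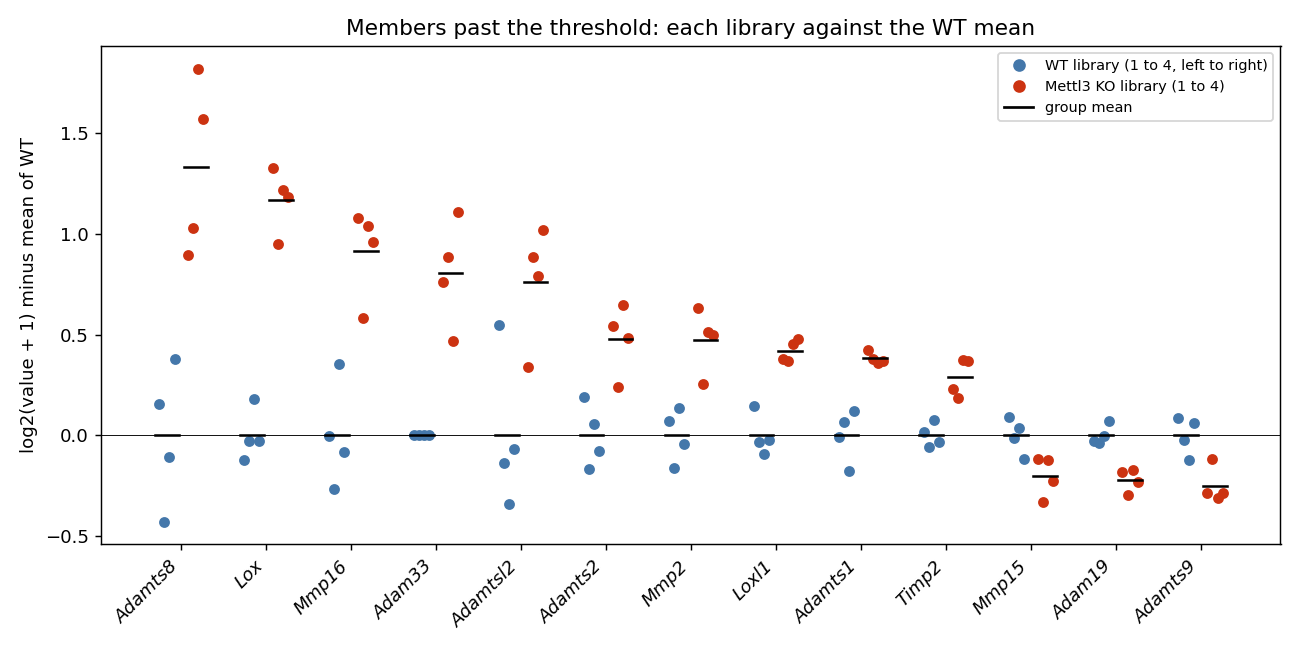
Each library's log2(value + 1) minus the mean of the WT libraries (y axis) for the 13 called members (x axis), WT in blue and Mettl3 KO in red, with the group means as black lines. The 10 members on the left lie above 0 in the 4 Mettl3 KO libraries, and Adamtsl2, Mmp15 and Adamts9 overlap or touch between the genotypes.

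The libraries did not contribute alike. Mettl3 KO replicate 2 was the lowest of the 4 Mettl3 KO libraries in 6 of the 10 members called higher (Lox, Loxl1, Mmp2, Mmp16, Timp2 and Adamts2). It also had the lowest summed level of 8 fibroblast markers in the Mettl3 KO group, 4398 against at most 5060. Mettl3 KO replicates 2, 3 and 4 held Bmp10, an atrial gene, at 195, 158 and 358, whereas Mettl3 KO replicate 1 and all WT libraries were listed at 0. In Mettl3 KO replicate 1, 9 of the 10 members called higher lay above all 4 WT libraries, Adamtsl2 being the exception. That library entered the calls, so its place above WT is no separate support for them. The part of atrial tissue in the changes was not tested.

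Marker genes of other heart cells moved with genotype beside these results. Of 8 fibroblast markers 7 were called, all higher, and their summed level was 3493 to 3883 in WT and 4398 to 5060 in Mettl3 KO libraries, 131% of the WT mean. On the same scale of means Adamts8 was at 289%, Lox at 229%, Mmp16 at 193%, Adam33 at 183%, Adamtsl2 at 168%, Adamts2 at 139.5%, Mmp2 at 139%, Loxl1 at 134%, Adamts1 at 130% and Timp2 at 122% of WT. Of 8 endothelial markers 4 were called, all lower, with sums of 5172 to 5361 in WT and 4466 to 4867 in Mettl3 KO libraries, 88.7% of the WT mean. The members called lower stood at 87.1% (Mmp15), 85.8% (Adam19) and 84.1% (Adamts9) of WT. Of 8 cardiomyocyte markers 1 was called: Ryr2, the calcium release channel of the sarcoplasmic reticulum, was lower without overlap, at 85.3% of WT (adjusted p = 0.000137 by limma). The part of the cell types in these changes was not tested.

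Of 8 smooth muscle and pericyte markers 1 (Abcc9) was called lower, and their sums were 4502 to 4901 in WT and 4191 to 4496 in Mettl3 KO libraries. That sum is mostly Abcc9 and Rgs5, whereas 4 of the 8, the contractile genes Myh11 (0.17), Acta2 (0.14), Tagln (0.41) and Cnn1 (0.68), had positive log2 fold changes that did not pass, and the list median was 0.03. None of 8 macrophage markers was called (1, Lyz2, had an unadjusted p under 0.05), with sums of 1076 to 1308 and 1119 to 1338. Of 5 neutrophil markers, cells that store Mmp8 and Mmp9, 3 were in the table, none was called or had an unadjusted p under 0.05, and they summed to at most 24 in any library. Of 4 mesothelial markers Upk3b was called higher, and they summed to 63 to 100 in WT and 74 to 125 in Mettl3 KO libraries. The largest part of that sum is Wt1, at -0.21 on the log2 scale. Msln (1.19) and Upk1b (1.15) had positive log2 fold changes that did not pass, and the list median was 1.17. All 3 atrial genes were called higher (0 to 38 in WT, 33 to 541 in Mettl3 KO libraries). No defining marker that was in the table was at 0 in every library.

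**Figure D4:**
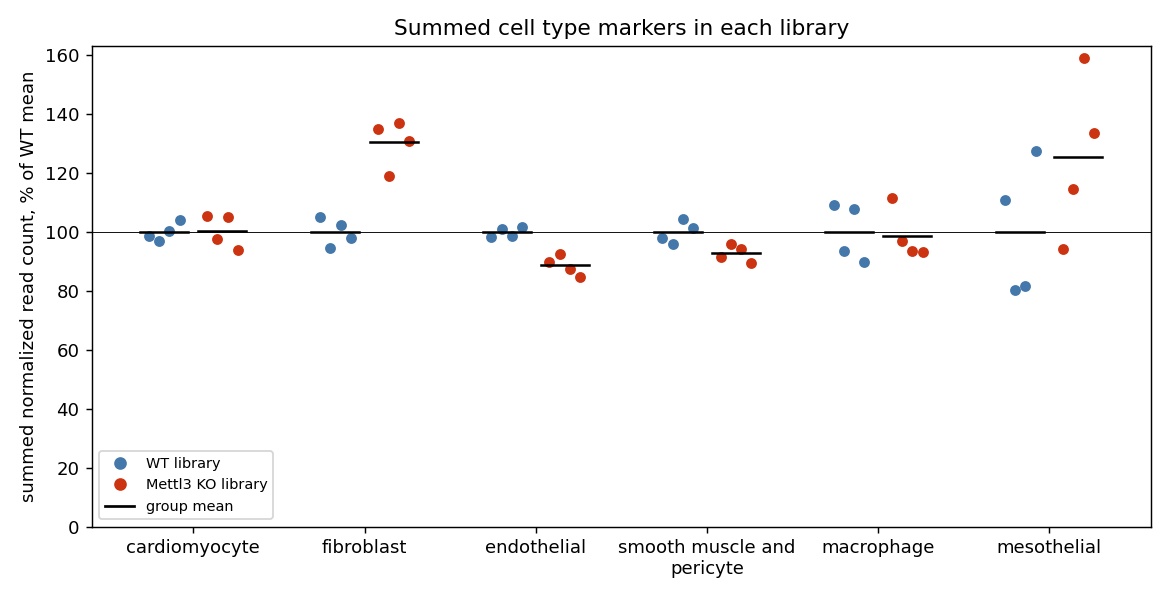
Summed normalized read count of each marker list in each library, as a percentage of the WT mean (y axis, from 0), WT in blue and Mettl3 KO in red, with group means as black lines. Fibroblast sums separate upward and endothelial sums downward, smooth muscle and pericyte sums, carried by Abcc9 and Rgs5, lie lower in Mettl3 KO libraries, and cardiomyocyte and macrophage sums overlap.

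Genes that work with the members were read from lists chosen by function. Of 20 genes of the plasminogen system and other matrix proteolysis, 6 were called, each higher in Mettl3 KO hearts, with a list median of 0.14 on the log2 scale. Pcsk5, a proprotein convertase, rose by 0.52 (± 0.11 SE, adjusted p = 0.00549 by limma), Htra3, a secreted serine protease, by 0.40 (± 0.09 SE, adjusted p = 0.00647 by limma) and Serpinf1, an anti-angiogenic serpin, by 0.43 (± 0.11 SE, adjusted p = 0.0120 by limma). Ctsk, the collagen-degrading cathepsin K, rose from 32, 36, 40 and 29 to 51, 44, 53 and 70 (adjusted p = 0.0139 by limma). The plasminogen activators Plau (-0.48, adjusted p = 0.164 by limma) and Plat (0.0027, 95% interval -0.20 to 0.21) did not pass, nor did the metalloproteinase inhibitor Reck (0.24, adjusted p = 0.433 by limma).

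Some calls of that list rested on few libraries. A2m, a broad protease inhibitor, was at 8, 6, 5 and 8 in WT libraries and at 7, 30, 19 and 32 in Mettl3 KO libraries (95% interval 0.65 to 2.15, adjusted p = 0.0178 by limma), high in the libraries that held Bmp10. It was lost without WT replicate 2 (adjusted p = 0.0556), with Mettl3 KO replicate 2, 3 or 4 left out (adjusted p values of 0.100, 0.0635 and 0.102 by limma) and with voom (adjusted p = 0.0629). Ctsk was lost without WT replicate 4 (adjusted p = 0.0538) or Mettl3 KO replicate 4 (adjusted p = 0.0780), and Serpinf1 without Mettl3 KO replicate 4 (adjusted p = 0.0520).

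Of 16 collagen processing and crosslinking partners, 5 were called, each higher, with a list median of 0.06 on the log2 scale. Fmod, fibromodulin, a collagen-binding proteoglycan that directs lysyl oxidase to collagen, was at 32, 20, 11 and 20 in WT libraries and at 76, 54, 71 and 81 in Mettl3 KO libraries. It rose by 1.79 (± 0.22 SE, adjusted p = 1.66e-05 by limma) without overlap. Pcolce, which enhances removal of the carboxy-terminal propeptide, was at 136, 135, 130 and 130 in WT libraries and at 201, 166, 176 and 166 in Mettl3 KO libraries (0.41 ± 0.08 SE, adjusted p = 0.00197 by limma). Bmp1, the protease it assists, rose by 0.30 (± 0.08 SE, adjusted p = 0.0230 by limma), a call lost without WT replicate 1, 2 or 4 (adjusted p values of 0.0649, 0.0886 and 0.0764 by limma) and without Mettl3 KO replicate 1, 2 or 3 (adjusted p values of 0.0698, 0.0614 and 0.0513 by limma).

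P3h1, a prolyl hydroxylase, and Plod2, the lysyl hydroxylase of collagen telopeptides, were the other calls. P3h1 rose by 0.52 (± 0.11 SE, adjusted p = 0.00455 by limma) from 58, 60, 59 and 49 to 82, 77, 83 and 83, and Plod2 by 0.29 (± 0.07 SE, adjusted p = 0.0113 by limma), which was lost without WT replicate 2 (adjusted p = 0.0580). The remaining 11 genes of the list, among them the collagen chaperone Serpinh1 (0.01, adjusted p = 0.951 by limma) and the prolyl hydroxylase P4ha1 (-0.006, adjusted p = 0.981 by limma), did not pass.

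Some members lie side by side in the genome and were called apart. Adamts1 and Adamts5 are on the same strand of chromosome 16 with 53059 bases between them, and Adamts1 was called while Adamts5 was not. Adamts15 and Adamts8 are 20109 bases apart on opposite strands of chromosome 9, and Adamts8 was called while Adamts15 was not. Whether neighbours differed from each other was not tested. Mmp13, Mmp12, Mmp3 and Mmp27 form a cluster on chromosome 9 in which none was called and 1, the barely detected Mmp27, had an unadjusted p under 0.05. Adam32 and Adam9 are 806 bases apart on the same strand of chromosome 8, and neither was called.

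Promoters were read for the 37 members with an entry in the RefSeq promoter table (build GRCm38.p6, windows of 300 bases across each start), which include 4 of the members called higher and the 3 called lower. All 7 held a GC box (letters GGGCGG, either strand), as did 25 of the 37 members (67.6%). It was found in 35.7% of the 32851 windows of the table. A member counts when any of its windows matches, whereas the share of the table is per window over all its genes. These shares are therefore not like for like, here and for the motifs below. A TATA box (TATAAA, either strand) was found in Adamts1 and Adamtsl2 among the called members and in 13.6% of all windows. An AP-1 element (TGANTCA) and a TEAD element (GGAATG) were found in Adam19 alone of the 7, against 7.81% and 14.7% of all windows (both on either strand). A match is a run of letters and was not shown to be bound. The 150 bases before the start are shown for 3 members that rose and for Adamts9, which fell, with GC boxes (GGGCGG, or CCGCCC on the other strand) and TATAAA in capitals.
Adamts1 (chr16:85803114-85803263, minus strand): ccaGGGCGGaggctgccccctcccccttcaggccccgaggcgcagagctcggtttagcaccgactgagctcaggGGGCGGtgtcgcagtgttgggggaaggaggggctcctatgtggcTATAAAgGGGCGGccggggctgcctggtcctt
Adamtsl2 (chr2:27079229-27079378, plus strand): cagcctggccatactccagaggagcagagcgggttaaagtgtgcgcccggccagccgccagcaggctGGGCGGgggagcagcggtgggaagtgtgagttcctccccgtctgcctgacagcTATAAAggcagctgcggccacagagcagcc
Timp2 (chr11:118355412-118355561, minus strand): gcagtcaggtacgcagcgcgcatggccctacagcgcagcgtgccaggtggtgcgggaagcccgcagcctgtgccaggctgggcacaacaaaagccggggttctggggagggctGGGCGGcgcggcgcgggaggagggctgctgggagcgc
Adamts9 (chr6:92943535-92943684, minus strand): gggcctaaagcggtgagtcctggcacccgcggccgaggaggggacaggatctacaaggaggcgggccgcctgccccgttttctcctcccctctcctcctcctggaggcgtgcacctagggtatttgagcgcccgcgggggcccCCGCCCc
The printed stretch held 3 GC boxes and a TATA box in Adamts1 and 1 GC box in Timp2 and in Adamts9, so the same box stood before genes that rose and before one that fell.

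Because METTL3 methylates adenosine within a short consensus, the commonest form of which reads GGACT in DNA letters, its matches were counted in the longest protein-coding transcript of each member (sense strand, GENCODE annotation of GRCm38). The median density was 1.01 matches per kb in the 10 members called higher, 1.25 in the 3 called lower, 1.02 in the 50 not called and 1.05 over all tested protein-coding genes. Members called higher spanned 0.809 to 2.20 per kb, the highest being Adamts8. A match within 200 bases of the end of the stop codon, the stretch where m6A is usually densest, was present in 6 of 10 members called higher, 2 of 3 called lower and 21 of 50 not called. Methylation was not measured, and a match is no evidence of a modified base. To show such matches, the one nearest to the stop codon is printed in 25 bases of transcript, with GGACT in capitals, for 2 members that rose and 1 that fell.
Mmp2: cctgcccaaaGGACTcgggttgtct
Adamtsl2: tgacaagaagGGACTtctcagatgg
Adam19: aggcccagggGGACTcatatccaat
The match starts 540 bases after the end of the stop codon in Mmp2, 118 after it in Adamtsl2 and 171 after it in Adam19.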

How the data were processed

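Stranded single-end RNA-seq libraries of mouse hearts were used. Following the submitters' processing notes and the study's methods, the authors ran Trimmomatic 0.39, STAR 2.7.11a on mm39, Picard 3.1.1 for duplicates and featureCounts 2.0.4 by strand over exons. Multi-mapping, ribosomal and mitochondrial reads and reads on several genes were dropped, which can lower overlapping genes and close copies such as Adam1a and Adam1b. Reads lost in this way were not measured. The deposited values are a score, namely counts that the authors normalized with DESeq2 1.36.0 and rounded to whole numbers, so the main test was not a count test. Voom, a method made for raw counts, was run on these values as an alternative only.

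The 20313 genes whose mean reached 1 entered limma 3.58.1 (R 4.3.3) as log2(value + 1), with a trended prior and genotype as covariate, and the other 2732 were left out. This scale shrinks changes of low genes. Tests were two-sided, with Benjamini-Hochberg adjustment over all tested genes, and the fit was tested on simulated data. There it recovered 27.6% of log2 changes of 0.5 and 86.4% of changes of 1 at a mean of at least 20. Under a mean of 20 it recovered 2.44% and 5.41%. The simulation changed few genes at a fixed spread, so these shares need not hold here. A gene that was not called may still have changed. Members and lists were chosen with earlier results of these data known. Named in full were called members, all TIMPs and lysyl oxidases, the most abundant member of each role group and called genes of the functional lists. Other members are given by values, ranges or fold changes, and 1 gene of the functional lists and 1 sequence are not reported here. Levels per kb divide by the longest protein-coding GENCODE transcript of GRCm38, matched by gene identifier for all members. Alternatives were other pseudocounts, filters and scalings, voom, the replicate number as a block, and leaving out each library. No pair of libraries held identical values, and each was counted as 1 replicate.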

Additional observations from a re-analysis of the deposited data

Results flagged for a closer look

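Libraries far from their group were searched over 34 named genes and the library total in each genotype, 70 groups in all, with Dixon's criterion for 4 samples. It marked 2 groups, where chance gives 1 in 20, or 3.5. Adamts9 in Mettl3 KO hearts was marked (0.867) for replicate 2 at 592 against 517 to 527, the library whose value lies within the WT range. P3h1 in Mettl3 KO hearts was marked (0.833) for replicate 2 at 77 against 82 to 83, a gap of 5 normalized read counts. The gaps were not explained further.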

How the results depend on the processing

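The count of called members stayed at 13 with pseudocounts of 0.5 and 5, without a filter, with both rescalings and with voom, and these were the same 13 genes. It was 12 with a filter of a mean value of at least 10, which leaves out Adamts8, and 12 with the replicate number as a block, which loses Adam33. Without each library in turn it was 10 to 15. The count over all genes was 1019 (without Mettl3 KO replicate 3) to 1596 and that of functional partners 7 to 10 (main value 11), lowest when either WT replicate 2 or Mettl3 KO replicate 4 was dropped, and the median over members ran from -0.0037 (without Mettl3 KO replicate 4) to 0.09. Mettl3 was -0.71 to -0.60. Loxl2 (-0.02 to 0.09) and Loxl4 (-0.06 to 0.31) changed sign as libraries were left out, both far from the threshold. Lox, Loxl1, Mmp2, Mmp16, Timp2, Adamts1, Adamts2, Adamtsl2, Adam19 and Adamts9 passed in all 16 alternatives. The causes were not tested.

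Libraries with the same replicate number correlated at -0.0414 to 0.0878 in their deviations from the group means over 12027 genes. Those with different numbers ran from -0.185 to 0.198, so no closer tie was seen between libraries of the same number. The labels do not say what the numbers mean, and these correlations cannot exclude a pairing. With the block 1346 genes were called over all genes (main value 1607) and 10 functional partners. Low reads limit the 22 members with a mean value under 20.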
